A study of Mus musculus with 4 samples.

Results

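Keratins are the intermediate filament proteins of epithelial cells, and their genes lie in 2 clusters of the mouse genome, the type I (acidic) keratins on chromosome 11 and the type II (basic) keratins on chromosome 15. All protein-coding genes of these chromosomes named Krt and a number were taken, keratin-associated protein genes excluded, which gave 53 of the 21924 protein-coding genes, 27 on chromosome 11 and 26 on chromosome 15. A FAIRE-positive region, that is, a stretch of accessible chromatin called as a peak, was assigned to the protein-coding gene with the nearest transcription start site (TSS), that of any transcript, which for 12 of the 52 keratin regions below was not the start of the gene record. In this way 117 of the 88442 peaks of the 4 libraries belonged to a keratin gene. Peaks of different libraries that overlapped by at least 1 bp were merged, which gave 52 keratin regions of 35796 in all, 22 on chromosome 11 and 30 on chromosome 15.

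The data came from FAIRE-seq (formaldehyde-assisted isolation of regulatory elements), which recovers the DNA that is not held by crosslinked proteins. It was applied to EpRas cells, a mouse mammary gland epithelial line (EpH4) transformed with oncogenic Ras, so that all groups carried the Ras transgene. All 4 groups were collected at day 4. They were cells with control siRNA (siControl) left untreated, siControl cells with 1 ng/ml TGF-β, and TGF-β-treated cells with either of 2 different siRNA sets, set 1 and set 2, directed against both of the ETS factor genes Etv4 and Etv5. There was 1 peak list per group, which may combine biological replicates, so the spread between replicates is unknown and no test of a condition was possible. Every comparison below is between lists, and every interval covers counting error only.

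Each filament is built from pairs of a type I and a type II keratin, and the pairs mark the kind of epithelium. Krt8 with Krt18, joined by Krt7 and Krt19, form the filaments of simple epithelia such as the luminal layer of the mammary gland. Krt5 with Krt14 form those of basal cells, including the myoepithelial layer of the gland. Krt6a, Krt6b, Krt16 and Krt17 are induced by wounding and stress, whereas the hair and inner root sheath keratins build the hair shaft and its sheath. Loss of simple keratins and gain of the mesenchymal filament protein vimentin are usual marks of epithelial-mesenchymal transition, the process that TGF-β induces in these cells.

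The depth of the libraries, estimated from the background that the peak caller used, was 15.3 to 20.7 M reads, with set 2 the deepest and untreated cells the shallowest. The fewest fragments at the summit of any peak were 10 to 12, depending on the library. Set 2, although the deepest, had the shortest list, with 14925 peaks against 28754 for siControl with TGF-β. Promoters of a list of 7 mammary epithelial genes, Krt8 and Krt18 among them, were called in 5 of 7 cases in untreated cells, 4 with TGF-β, 3 in set 1 and 2 in set 2, where 35.9%, 37.9%, 34.0% and 27.1% of all protein-coding genes had a promoter peak. Of 10 marker genes of myoepithelium, leukocytes, endothelium, liver and muscle, only the endothelial gene Pecam1 had a promoter peak, in the siControl library with TGF-β.

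The sequences at the summits of 8 keratin regions are given first, since the results return to them. Shown are 7 of the 10 regions that were called in all 4 libraries, among them both promoters of this kind (Krt14 and Krt16), and the Krt18 promoter, which was chosen after its values had been seen. Each line gives mm10 coordinates and the bases 5′ to 3′ on the strand of the named gene, 200 bases around the summit, or 138 for the Krt18 promoter, where annotated exons were left out. Capitals mark the letters TGANTCA (AP-1), CGGAAG or AGGAAG (ETS), TGTGGT (RUNX), GCCNNNGGC (TFAP2), CACCTG (E-box) and GGGCGG (Sp/KLF), each searched on both strands, and the p53/p63 motif, of which none is present in these stretches.
Krt14 promoter (chr11:100207619-100207818, minus strand): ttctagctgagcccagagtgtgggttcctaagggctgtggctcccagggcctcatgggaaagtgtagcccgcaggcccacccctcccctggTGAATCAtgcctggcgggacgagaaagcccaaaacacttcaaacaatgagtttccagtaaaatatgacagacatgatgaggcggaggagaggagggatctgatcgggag
Krt16 promoter (chr11:100249174-100249373, minus strand): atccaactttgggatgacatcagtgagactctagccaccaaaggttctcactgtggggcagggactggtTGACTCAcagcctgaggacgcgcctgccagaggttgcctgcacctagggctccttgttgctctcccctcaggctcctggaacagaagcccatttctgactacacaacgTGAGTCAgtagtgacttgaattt
Krt9 upstream (chr11:100198776-100198975, minus strand): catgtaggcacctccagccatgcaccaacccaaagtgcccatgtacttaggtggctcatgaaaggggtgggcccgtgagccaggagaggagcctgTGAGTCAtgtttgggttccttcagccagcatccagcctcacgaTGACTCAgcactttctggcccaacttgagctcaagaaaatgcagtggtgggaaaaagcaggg
Krt42 upstream (chr11:100287176-100287375, minus strand): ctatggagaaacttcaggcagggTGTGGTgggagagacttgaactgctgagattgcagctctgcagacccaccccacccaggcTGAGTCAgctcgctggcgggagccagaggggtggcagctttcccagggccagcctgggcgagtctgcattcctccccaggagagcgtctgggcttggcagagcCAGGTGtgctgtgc
Krt80 upstream (chr15:101388296-101388495, minus strand): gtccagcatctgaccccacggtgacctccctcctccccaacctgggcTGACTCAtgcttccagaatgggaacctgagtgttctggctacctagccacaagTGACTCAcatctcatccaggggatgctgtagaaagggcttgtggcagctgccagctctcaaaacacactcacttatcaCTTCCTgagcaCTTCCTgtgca
Krt18 promoter (chr15:102028042-102028179, plus strand): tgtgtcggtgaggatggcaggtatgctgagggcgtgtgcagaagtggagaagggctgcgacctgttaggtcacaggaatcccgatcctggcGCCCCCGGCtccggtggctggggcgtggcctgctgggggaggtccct
Krt18 downstream (chr15:102045753-102045952, plus strand): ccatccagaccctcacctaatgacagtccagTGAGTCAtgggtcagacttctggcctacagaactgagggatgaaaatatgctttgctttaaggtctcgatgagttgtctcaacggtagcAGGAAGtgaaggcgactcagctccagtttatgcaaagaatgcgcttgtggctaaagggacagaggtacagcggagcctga
Krt8 downstream (chr15:101984342-101984541, minus strand): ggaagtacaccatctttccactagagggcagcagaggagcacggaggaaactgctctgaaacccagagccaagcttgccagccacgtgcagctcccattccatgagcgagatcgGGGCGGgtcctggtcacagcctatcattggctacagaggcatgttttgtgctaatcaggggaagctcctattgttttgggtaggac

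The 4 regions of the Krt9 to Krt42 stretch on chromosome 11 that open this list all hold the AP-1 letters, and Krt9 and Krt16 hold them at 2 positions each. The ETS letters are in none of these 4 stretches, whereas the Krt80 stretch has 2 ETS and 2 AP-1 matches and the Krt18 downstream stretch 1 of each. The Krt18 promoter and the Krt8 downstream stretch have neither, and carry a TFAP2 and an Sp/KLF match. These are matches of letters and do not show that a factor was bound.

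The first question was how many keratin regions each library had. Untreated cells had 32 keratin peaks, siControl cells with TGF-β 42, cells with set 1 27 and cells with set 2 16. As a share of all peaks this was 0.144% (exact binomial 95% interval, 0.0984 to 0.203), 0.146% (0.105 to 0.197), 0.120% (0.0790 to 0.174) and 0.107% (0.0613 to 0.174), and all 4 intervals overlapped. These intervals are wide, so their overlap does not show that the shares were equal. Keratin peaks were most numerous in the longest list, that of siControl with TGF-β, and fewest in the shortest, set 2. With set 1 they were fewer than in untreated cells, although its list was slightly longer (22516 against 22247 peaks). The number of keratin genes with a peak was 16 in untreated cells, 21 with TGF-β, 16 in set 1 and 9 in set 2.

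The strength of a region is given as its fold enrichment, the summit signal over the local background. The median fold enrichment of keratin peaks was 7.12 in untreated cells, 7.89 with TGF-β, 7.72 in set 1 and 6.11 in set 2. Over all peaks it was 8.19, 8.44, 7.91 and 7.15, so the keratin median was the lower one in each library. Their summits held about as many fragments as others, with medians of 22, 24.5, 24 and 21.5 against 21, 23, 22 and 22. What differed was the local background that the caller used, with a median of 170.5 reads per 10 kb around keratin peaks against 135 around all peaks in the siControl library with TGF-β. The background was high at simple epithelial keratins, with a median of 207 reads per 10 kb in this library, and lower at hair keratins, with 121. At the Krt8 promoter, 21 summit fragments over a background of 252 reads per 10 kb made a fold enrichment of 5.06, whereas at Krt10 the same 21 fragments over 110 reads made 8.93.

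Both clusters held more accessible regions than the genome average, unevenly spread. The type I cluster spans 1037 kb (mm10, chr11:99232761-100269871) with 68 protein-coding genes, and had 18.3 peaks per Mb in untreated cells, 28.9 with TGF-β, 20.2 for set 1 and 6.75 for set 2. The genome as a whole had 8.16, 10.5, 8.26 and 5.47. Chromosome 11 itself is dense in regions, with 19.3 peaks per Mb with TGF-β and 10.6 with set 2, so that with set 2 the cluster lay below its chromosome. The type II cluster spans 685 kb (chr15:101347444-102032027) and had 23.4, 26.3, 16.1 and 11.7 peaks per Mb, above its chromosome, which had 13.2, 16.6, 13.2 and 9.21. Of the merged regions inside the spans, 19 of 33 in the type I and 24 of 25 in the type II cluster were nearest to a keratin gene. The type I cluster also holds keratin-associated protein genes, and which genes its other regions were nearest to was not examined. Stretches of 131.1, 108.9 and 90.1 kb in the type I cluster held no region and no keratin TSS, but 9, 3 and 11 other protein-coding TSSs.

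**Figure D1:**
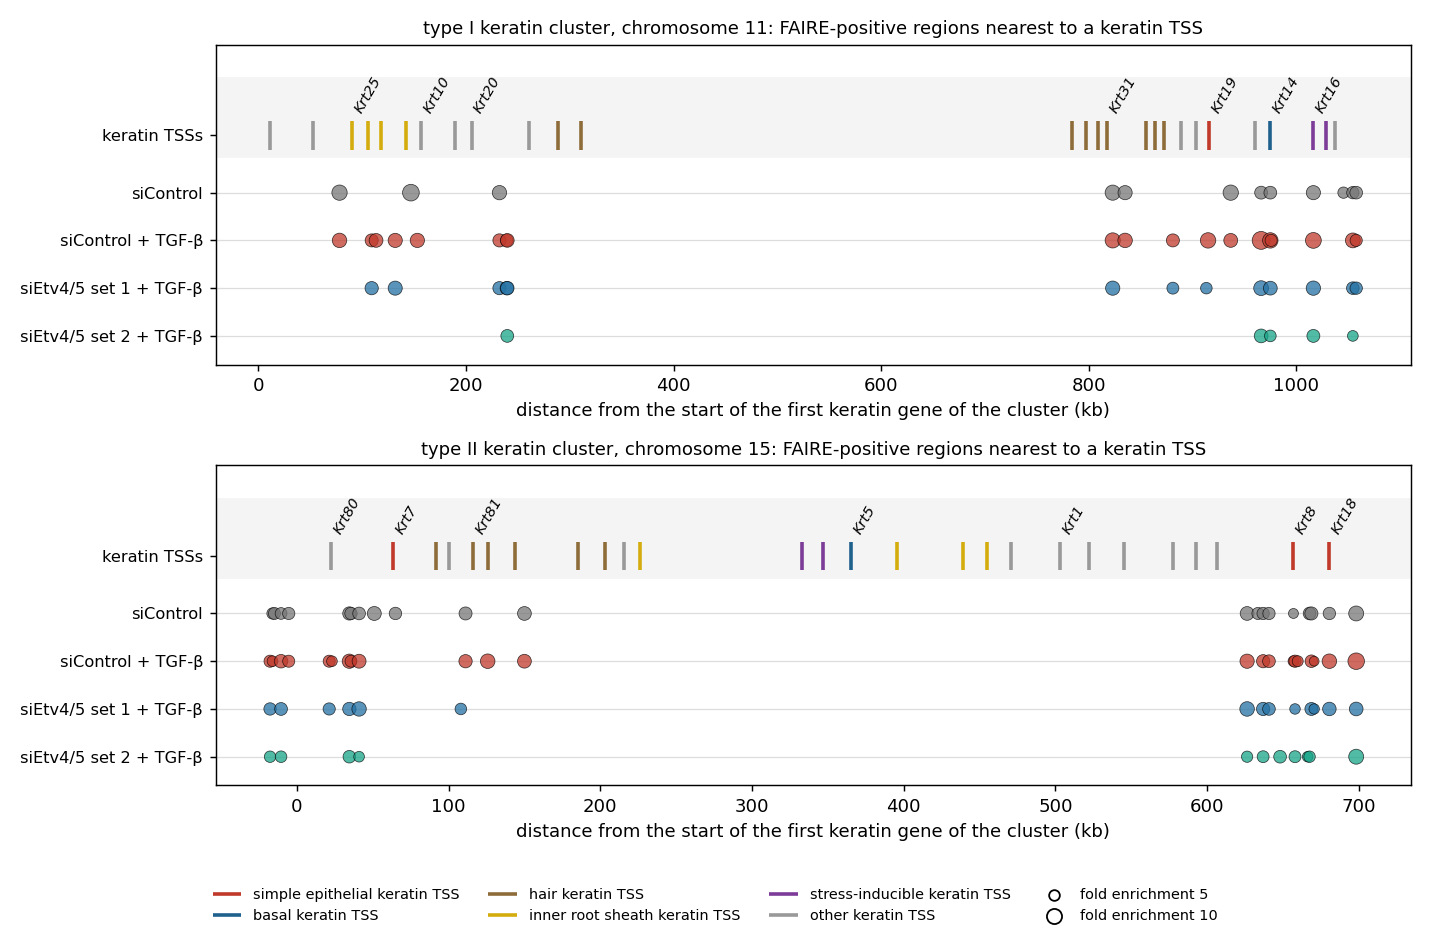
Keratin TSSs (upper row of each panel, coloured by class) and keratin regions in each library (circles, area proportional to fold enrichment) along the type I and type II clusters, in kb from the start of the first keratin gene. The middle of the type II cluster, with Krt5 and 16 other keratin TSSs, holds no region in any library, while both its ends, around Krt80 and Krt7 and around Krt8 and Krt18, are filled.

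The regions of the type II cluster sat at its ends. A stretch of 453.7 kb (chr15:101520050-101973795) held the TSSs of 17 keratin genes, from Krt84 and Krt82 through Krt6b, Krt6a, Krt5 and Krt1 to Krt78, and no region of any library lay in it. It includes the whole row of basal, stress-inducible, epidermal and inner root sheath type II keratins. Reads of 36 bp can be placed in most of it, since 91.4% of its 36-base windows occur once in the assembled chromosomes, against 92.2% of the whole type II cluster and 88.9% of the type I cluster. Around single TSSs (within 2 kb) this share was 92.0% for Krt5, but only 76.2% for Krt6a and 74.8% for Krt6b, whose sequences are close copies, and 71.2% for Krt16, the lowest of all keratins. The median over the 53 genes was 97.3%.

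Keratins differed by class. Of all 53 keratin genes, 23 (43.4%) were the nearest gene of a region in at least 1 library, and 9 (17%) had a region within 2 kb of a TSS, called a promoter region here. Over all protein-coding genes these shares were 61.4% and 42.4%. The 4 simple epithelial keratins, Krt7, Krt8, Krt18 and Krt19, all had regions, 18 in sum, and all had a promoter region in some library. By library, 3 of the 4 had a promoter region in untreated cells, 3 with TGF-β, 3 in set 1 and 1 (25%) in set 2. Over all protein-coding genes the promoter shares by library were 35.9%, 37.9%, 34.0% and 27.1%, so the excess was not seen with set 2. Of the basal pair, Krt14 had 2 regions and Krt5 none. Of the 4 stress-inducible keratins, only Krt16 had a region. Hair keratins had 5 regions at 4 of 15 genes and 1 promoter region, and inner root sheath keratins 5 regions at 4 of 8 genes and no promoter region. Of the 20 remaining keratins 9 had regions, 21 in sum, of which 10 belonged to Krt80.

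**Figure D2:**
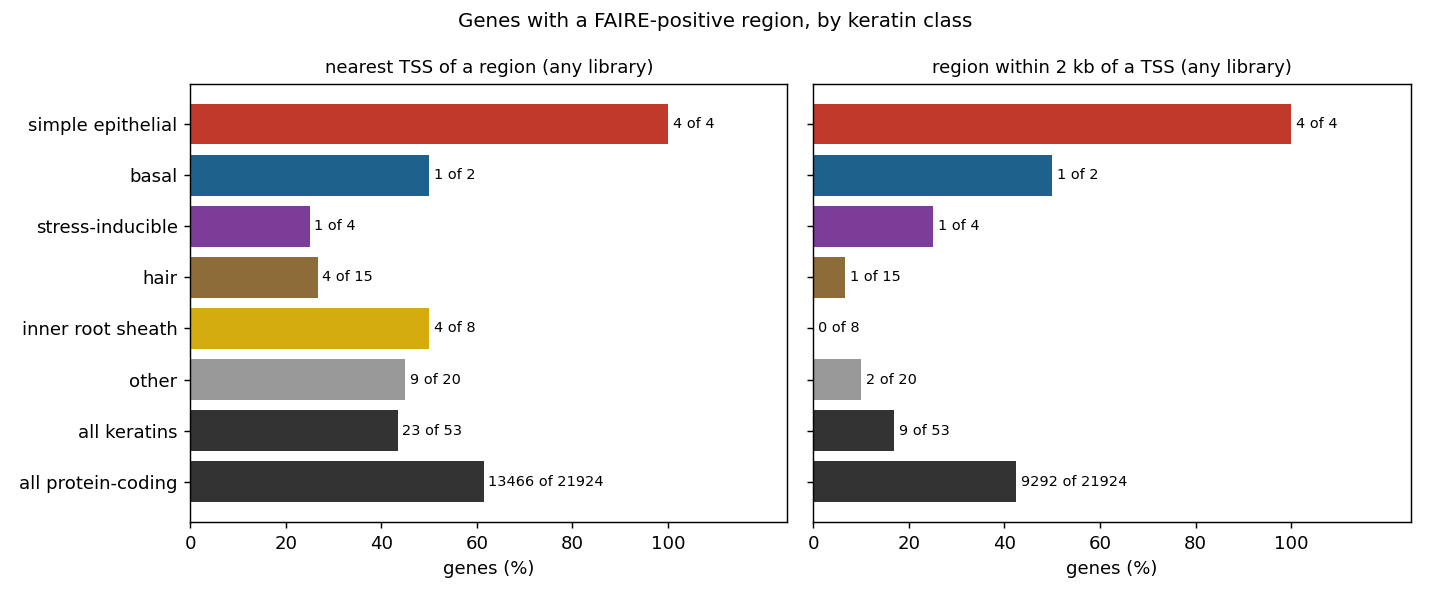
Share of genes (%) that were nearest to a FAIRE-positive region (left) or had one within 2 kb of a TSS (right) in any of the 4 libraries, by keratin class, with the number of genes beside each bar. All 4 simple epithelial keratins had a promoter region in some library, against 1 of 15 hair keratins and 42.4% of all protein-coding genes. By library, 3 of the 4 had one in untreated cells, 3 with TGF-β, 3 in set 1 and 1 in set 2.

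Among simple epithelial keratins, Krt18 had the strongest region. It lay 17.7 kb downstream of the TSS, between Krt18 and Eif4b (chr15:102045626-102046021, intergenic), and its fold enrichment was 9.80 in untreated cells, 12.0 with TGF-β, 8.25 in set 1 and 9.82 in set 2. These came from 30, 44, 31 and 34 summit fragments, the siControl library with TGF-β being the highest by both measures. The Krt18 promoter region, 26 bp upstream of the TSS (chr15:102028052-102028234), had a fold enrichment of 6.76 in untreated cells, 9.26 with TGF-β and 8.02 with set 1, from 17, 25 and 24 fragments, and was not called with set 2. Peaks of set 2 with a similar background (within 5%, taken from the other libraries) were called from 14 fragments upwards. The count at the promoter region with set 2 is not known. A weaker region 10.1 kb upstream was called with TGF-β (4.17) and set 1 (4.75) alone.

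Krt8, the type II partner of Krt18, had 10 regions, which changed from library to library. The region at its start site, 59 bp downstream of the TSS and in an exon (chr15:102004357-102004549), had a fold enrichment of 4.33 in untreated cells and 5.06 with TGF-β, from 18 and 21 fragments, and was called with neither siRNA set. A second one, 1.00 kb upstream (chr15:102005354-102005614), was not called in untreated cells and reached 6.58 with TGF-β, 4.87 in set 1 and 6.28 in set 2. On a background as high as that of the start site, peaks were called from 19 fragments upwards with set 1 and from 20 with set 2, about the counts seen in the siControl libraries. The upstream site held 28, 19 and 26 fragments where it was called. Untreated peaks at such a background were called from 16 fragments upwards. The most constant region of Krt8 lay 20.0 kb downstream of its TSS (chr15:101984309-101984613, intergenic), with 6.63, 7.63, 7.73 and 6.22 in the 4 libraries. Neighbouring regions 16.2 kb downstream (6.65, 7.13 and 7.07) and 11.8 kb upstream (7.52, 6.93 and 7.39) were called in all libraries but set 2. Of the remaining 5, each was called in 1 or 2 libraries, 2 of them with set 2 alone.

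Krt7 and Krt19 each gave a different picture. Both Krt7 regions, 32 bp upstream of the TSS with its summit in an annotated exon (fold enrichment 6.81, 18 fragments) and 14 kb upstream (8.54, 20 fragments), were called in untreated cells only. With TGF-β peaks at such backgrounds were called from 13 and 12 fragments upwards. The exact Poisson 95% intervals of the untreated counts were 10.7 to 28.4 at the promoter and 12.2 to 30.9 at the distal region. The distances for Krt7 and Krt19 are to the nearest TSS of any transcript. From the first base of the gene record the Krt7 promoter region lay 1.33 kb downstream. Krt19 had a region 1.62 kb upstream of the nearest TSS with TGF-β only (chr11:100147646-100147834, 10.4, 24 fragments), which lay in an intron 0.925 kb downstream of the start of the gene record. Another, with set 1 only (5.87, 14 fragments), was 43 bp from the nearest TSS but in an exon 2.59 kb downstream of the start of the gene record. The last was 23.5 kb upstream, or 20.9 kb from the gene record start, in untreated cells (10.3) and with TGF-β (8.44). Peaks of untreated cells with a background like that of the region 1.62 kb upstream were called from 11 fragments. No region of either gene was called with set 2.

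**Figure D3:**
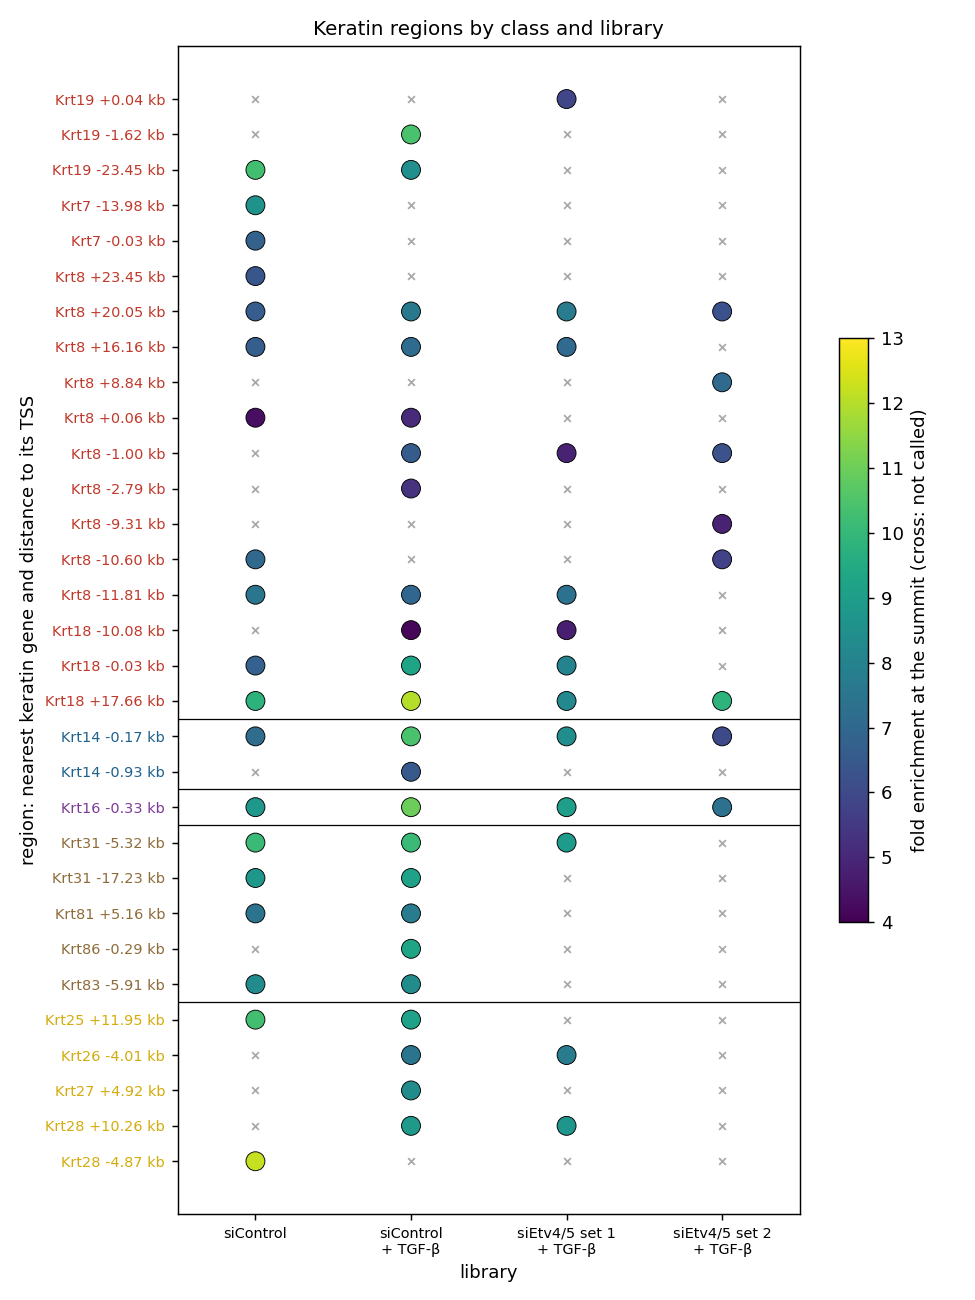
Fold enrichment (colour) of the keratin regions of the simple epithelial (red labels), basal (blue), stress-inducible (purple), hair (brown) and inner root sheath (yellow) classes in the 4 libraries, with a cross where no peak was called. Krt7 was called in untreated cells only, Krt14 and Krt16 in every library, and no hair or inner root sheath region with set 2.

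Of the basal and stress-inducible keratins, only Krt14 and Krt16 had regions, both on chromosome 11. Krt14 on chromosome 11 had a promoter region in all 4 libraries, 173 bp upstream of the TSS (chr11:100207574-100207843), with a fold enrichment of 7.16 in untreated cells, 10.4 with TGF-β, 8.38 in set 1 and 6.0 in set 2, from 22, 33, 25 and 20 fragments. A second one 929 bp upstream was called with TGF-β only (6.47, 20 fragments). Krt5, its partner on chromosome 15, had no region in any library. Krt16 had a promoter region in all 4 libraries, 332 bp upstream (chr11:100248978-100249394), with 8.80, 11, 9.02 and 7.34 from 17, 26, 23 and 18 fragments. The untreated value stood over 82 reads per 10 kb, the lowest background of that library. The type II partners of Krt16, Krt6a and Krt6b, had no region, and neither had Krt17, which lies on chromosome 11 as well. In Krt14 as in Krt16 the TGF-β library was the highest and the set 2 library the lowest.

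Hair keratin regions, at Krt31, Krt81, Krt83 and Krt86, were mostly distal and were called in siControl cells. Krt31, a type I keratin of the hair cortex, had a region 5.32 kb upstream with 10.1 in untreated cells, 10.1 with TGF-β and 8.89 with set 1, and another 17.2 kb upstream with 8.81 and 9.20 in the siControl libraries. Krt81, 5.16 kb downstream (7.42 and 7.76), and Krt83, 5.91 kb upstream (8.31 and 8.34), were also called in both siControl libraries only. The Krt86 region 288 bp upstream, the single hair keratin promoter, was called with TGF-β alone. There were 4 hair keratin peaks in untreated cells, 5 in the siControl library with TGF-β, 1 in set 1 and 0 in set 2, in lists of 22247, 28754, 22516 and 14925 peaks. Of all regions with TGF-β, 33.7% were not called with set 1 and 53.6% not with set 2, and whether hair keratins differ from this was not tested. The inner root sheath keratins had 2, 4, 2 and 0 peaks. Among these, Krt28 had the second highest value of any keratin, 12.2 at 4.87 kb upstream, in untreated cells only. Krt25 had 10.3 in untreated cells and 9.17 with TGF-β at 12.0 kb downstream. The untreated values of Krt28 and Krt25 came from 24 and 20 summit fragments over 82 reads per 10 kb, the lowest background of that library. The Krt83 and Krt86 values above likewise stood over the lowest background of their library. Krt27 had 8.35 with TGF-β only, in an intron.

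The highest fold enrichment of any keratin region was at Krt9, a keratin of palm and sole epidermis. This region lay 5.63 kb upstream of the Krt9 TSS (chr11:100198741-100198979, intergenic) and 8.67 kb from the TSS of Krt14, the next gene, on its 3′ side. Its fold enrichment was 7.29 in untreated cells, 14.1 with TGF-β, 9.65 in set 1 and 8.29 in set 2, from 16, 31, 23 and 22 fragments. A region 17.4 kb upstream of Krt42 (chr11:100287047-100287376) was likewise highest with TGF-β, with 6.70 in untreated cells, 9.67 with TGF-β, 6.97 in set 1 and 5.05 in set 2, from 28, 38, 27 and 22 fragments. Krt80, a keratin of differentiating epithelia at the edge of the type II cluster, had 3 regions called everywhere, 27.6 kb downstream (6.06, 8.02, 7.2 and 5.91), 11.8 kb upstream (7.68, 8.95, 7.79 and 6.97) and 18.2 kb upstream (7.07, 8.51, 9.11 and 5.00). The region assigned to Krt78, 19.6 kb upstream of it and 30.6 kb from Krt8, had 8.32, 8.92, 9.30 and 5.60. The other keratins named by strength were Krt20 (9.01, 26.9 kb upstream, untreated), Krt10, the partner of Krt1 in suprabasal epidermis (8.93, with TGF-β only, in an exon 128 bp downstream of the nearest TSS and 3.40 kb from the start of the gene record), and Krt23 (8.27, 20.5 kb downstream, with TGF-β).

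Regions called in many libraries were the smaller part. Of the 52 keratin regions 10 (19.2%) were called in all 4 libraries, against 29.6% of all regions, and 17 (32.7%) in 1 library, against 31.5%. Among the 52, 45 had the summit between protein-coding genes, 4 in an exon and 3 in an intron. Within 2 kb of the assigned TSS were 13 (25%), against 27.9% of all regions.

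The second question was which keratin regions differed between siControl cells with and without TGF-β. Of the 41 keratin regions with TGF-β, 16 (39.0%) were not called in untreated cells, where the share over all regions was 36.9%. Of the 32 untreated regions 7 (21.9%) were not called with TGF-β, against 18.4% over all. These shares are near the background. With lists of equal length the balance turned, to 8 regions called with TGF-β only and 11 in untreated cells only. By gene, the 16 regions called with TGF-β only were 3 of Krt80, 2 of Krt23, 2 of Krt8 (1.00 and 2.79 kb upstream, beside its start site region that was called in both) and 1 each of Krt10, Krt13, Krt14 (929 bp upstream, its promoter region at 173 bp being called in both), Krt18 (10.1 kb upstream), Krt19, Krt26, Krt27, Krt28 and Krt86. The 7 called in untreated cells only were 2 of Krt7, 2 of Krt8 and 1 each of Krt28, Krt42 and Krt80. At the 25 regions called in both, the fold enrichment was higher with TGF-β in 16 and lower in 9, where 65.4% of all such regions were higher and 34.6% lower. The median log2 ratio was 0.10 at keratin regions and 0.12 over all.

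A rise of at least 1.5-fold was seen at 1 of these 25 regions, that of Krt9, against 5.92% of all regions, and a fall of this size at 0, against 0.924%. The Krt9 region rose 1.93-fold in fold enrichment (log2 ratio 0.95). In summit fragments per M reads (FPM) the ratio was 1.82, with an exact conditional 95% interval of 0.965 to 3.56 that includes 1. Krt14 (1.46-fold) and Krt42 (1.44-fold) came next among the 10 regions called everywhere, while Krt16 was at 1.25 and Krt78 at 1.07. On the FPM scale the Krt14 ratio was 1.41 (0.797 to 2.54), that of Krt42 1.27 (0.762 to 2.16), that of Krt16 1.44 (0.750 to 2.82) and that of the Krt18 downstream region 1.38 (0.847 to 2.27). The interval included 1 at all 25 regions called in both libraries, so at this depth none of these differed with TGF-β beyond counting error. The 23 regions called in 1 of these 2 libraries have no count in the other and were not compared in this way. At Krt19 24 fragments with TGF-β stood beside an untreated list whose calls at such a background began at 11. At Krt28 (4.87 kb upstream) 24 fragments in untreated cells stood beside a list with TGF-β whose calls also began at 11. Both were picked from the regions called in 1 of the libraries, with the background taken from that library. Whether their counts differ between the libraries was not tested.

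**Figure D4:**
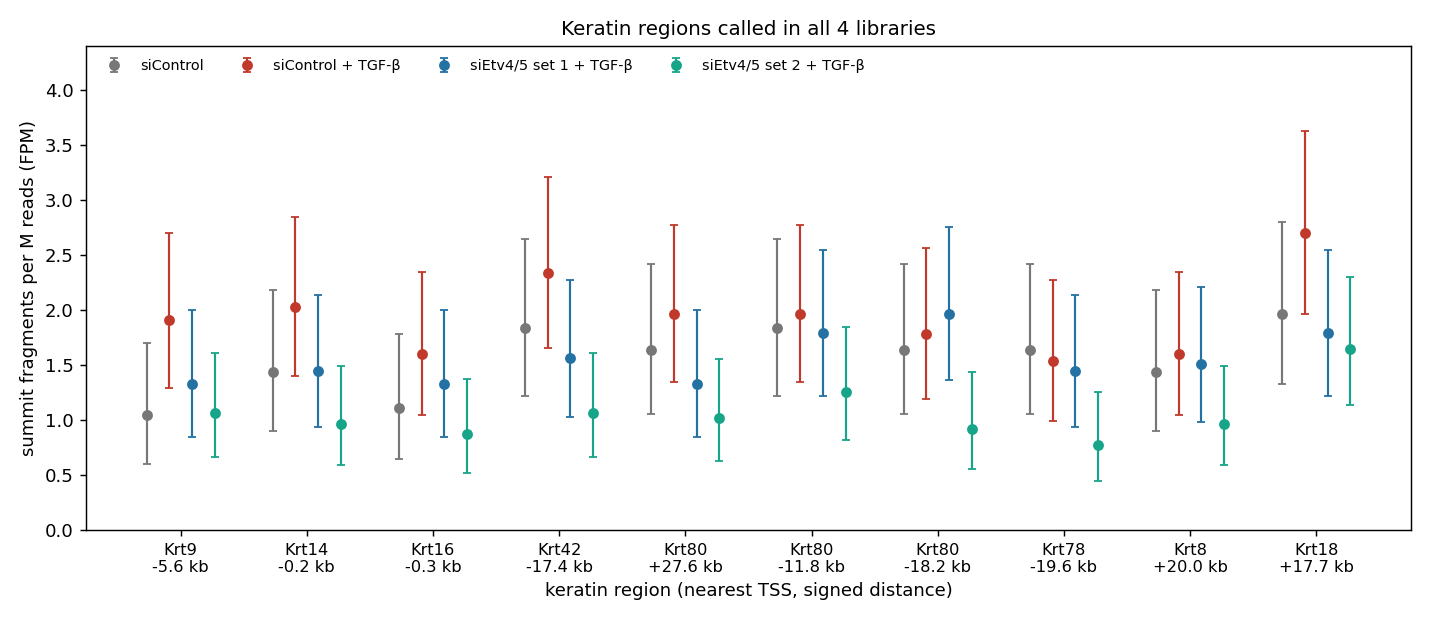
Summit fragments per M reads of estimated depth (FPM, vertical axis) at the 10 keratin regions called in all 4 libraries, named by the nearest gene and the signed distance to its TSS in kb. Points are single libraries and bars exact Poisson 95% intervals (counting error only). The siControl library with TGF-β is the highest at 8 of the 10 regions, all but Krt78 and the Krt80 region 18.2 kb upstream. The set 2 library is the lowest at 9, all but Krt9. In FPM, 64.4% of all regions called in both siControl libraries were higher with TGF-β. Of all regions that set 2 shared with siControl under TGF-β, 96.7% were lower with set 2.

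The third question was how the keratin regions of TGF-β-treated cells differed with the siRNA sets against Etv4 and Etv5. Both comparisons use the same siControl library with TGF-β, which also enters the comparison above. With set 1, 16 of the 41 keratin regions (39.0%) were not called, against 33.7% over all regions. Of the 27 keratin regions of set 1, 2 (7.41%) were called in set 1 only, against 15.2% of all set 1 regions. With lists of equal length this turned as well, to 4 regions called in siControl only and 8 in set 1 only. At the 25 regions called in both, 14 had a lower fold enrichment and 11 a higher one, where 71.5% of all regions were lower and 28.5% higher. In FPM 20 were lower and 5 higher, and 77.2% of all regions lower, so the share of lower regions was below the background on the first scale and close to it on the second. The median log2 ratio was -0.02 at keratin regions and -0.16 over all in fold enrichment, and -0.15 and -0.24 in FPM. The number of keratin regions past 1.5-fold was 0 in either direction, against 6.6% lower and 0.557% higher over all regions. Krt9 had 0.686 and the Krt18 downstream region 0.688 times the siControl fold enrichment, just above the limit for a fall.

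With set 2, 28 of the 41 regions (68.3%) were not called, against 53.6% over all regions. Of the 16 keratin regions of set 2, 3 (18.75%) were called in set 2 only, against 10.3% of all set 2 regions. With lists of equal length 7 were called in siControl only and 5 in set 2 only. All 13 keratin regions called in both libraries had a lower fold enrichment with set 2, as had 89.4% of all regions. The median log2 ratio was -0.44, against -0.38 over all. At least 1.5-fold lower were 5 of the 13, those of Krt42, Krt14, Krt80 (18.2 kb upstream), Krt9 and Krt78, against 24.2% of all regions, and none was as much higher, against 0.0901%. The ratio of fold enrichment was 0.523 at Krt42, 0.575 at Krt14, 0.588 at Krt80, 0.590 at Krt9 and 0.628 at Krt78. In FPM the ratios were lower, and their intervals lay below 1 at 7 of the 13 regions, including these 5, with 0.456 (0.257 to 0.791), 0.477 (0.260 to 0.857), 0.516 (0.273 to 0.952), 0.559 (0.308 to 0.997) and 0.504 (0.251 to 0.982). Over all regions called in both libraries 96.7% were lower in FPM, with a median log2 ratio of -0.67. These keratin values thus lie in a library that was lower nearly everywhere. The share of all regions with an interval below 1 was not computed, so the 7 of 13 cannot be read as particular to keratins.

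By class, simple epithelial keratins had 11 peaks in untreated cells, 11 with TGF-β, 8 in set 1 and 6 in set 2, and hair and inner root sheath keratins together 6, 9, 3 and 0. The lists as a whole shortened as well, from 28754 peaks with TGF-β to 22516 and 14925 with the siRNA sets, and simple epithelial keratins made up 0.0494%, 0.0383%, 0.0355% and 0.0402% of the 4 lists. No test of a difference between classes was made. Of the 41 regions with TGF-β, 16 (39.0%) were called with neither siRNA set, against 28.9% over all regions. Among them were 4 hair keratin regions, the Krt8 start site and both Krt19 regions. Of the 16 regions gained with TGF-β, 7 (43.8%) were called with neither set, against 54.4% over all.

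The motifs of all 52 regions were read in the 200 bp around the summit of the strongest peak. The AP-1 letters were in 25 (48.1%), against 38.1% of all regions, and at regions over 2 kb from a TSS in 48.7% of 39, against 48.7% over all. Of the 10 keratin regions called in all 4 libraries 7 held AP-1, 6 of them printed above, with 37.6% of all such regions and 60.5% of the distal ones. The ETS letters, the core recognised by factors such as Etv4 and Etv5, were in 16 regions (30.8%), against 36.8%. RUNX was in 25% against 19.9%, TFAP2 in 13.5% against 9.93%, Sp/KLF in 11.5% against 19.9% and the p53/p63 motif in 3.85% against 5.68%. The E-box letters were in 26.9% (exact binomial 95% interval, 15.6 to 41.0) against 13.5% of all regions, the widest of these gaps in proportion. As the widest gap was picked out of all the motifs read, its interval is not a test. The interval also treats regions near the same gene as independent. At the regions called in all 4 libraries the letters were in 1 of 10 keratin regions (10%), against 12.5% of all such regions. At those called in 1, 2 or 3 libraries the keratin share was the higher one. The median GC content of the windows was 53.75% at keratin regions and 50.0% over all.

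Genes whose products anchor or regulate keratins were counted in the same way. Of 15 genes of desmosomes and cytolinkers, the proteins that tie keratin filaments to cell junctions, 14 had a region, against 61.4% of all protein-coding genes. A promoter region was called at 8 of the 15 in untreated cells, 7 with TGF-β, 5 in set 1 and 3 in set 2. Over all protein-coding genes the promoter shares were 35.9%, 37.9%, 34.0% and 27.1%. The 15 genes had 42 peaks in untreated cells, 58 with TGF-β, 40 in set 1 and 25 in set 2. This was 0.189%, 0.202%, 0.178% and 0.168% of the lists. The strongest was at Evpl (envoplakin), with 13.7, 12.0, 9.08 and 7.66 as its highest fold enrichment in each library, and Dsp (desmoplakin) had 7.57, 11.6, 8.45 and 8.63. Pkp3 had 11.6 with TGF-β and no peak in untreated cells, and Pkp1 had 11.2, 10.6, 8.23 and 7.88. All 10 regulators of epithelial keratin genes had a region, and 5, 5, 2 and 2 of them had a promoter region in the 4 libraries. They had 34, 48, 34 and 24 peaks, or 0.153%, 0.167%, 0.151% and 0.161% of the lists. Grhl2 had 13.1, 12.7, 12.1 and 8.93, Klf5 11, 11.7, 12.2 and 7.78, Klf4 12.0, 12.2, 10.3 and 7.47, and Grhl1 9.77, 11.6, 10.3 and 9.66. Vim, which encodes vimentin, had no peak in untreated cells, 2 with TGF-β and 1 with each siRNA set. Its highest fold enrichment was 6.13 with TGF-β, 8.30 in set 1 and 6.11 in set 2, against medians of 8.44, 7.91 and 7.15 over all peaks. Of all regions with TGF-β, 36.9% were not called in untreated cells, so this pattern is not particular to Vim.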

How the data were processed

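FAIRE DNA of EpRas cells was sequenced on an Ion Proton. Per the study's methods the authors shortened reads to 36 bp and aligned them with bowtie2 (mm10). MACS2 (version 2.1.0 in the submitters' processing notes) called peaks, with a q-value limit of 1e-04. The deposited lists, 1 per group, hold for each peak the authors' fold enrichment (a ratio), the summit, the p-value and q-value of the peak as -log10, and a whole-number score, which was not used here.

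Summit fragments and local background were solved from the deposited fold enrichment, taken with a pseudocount of 1, and the Poisson -log10 p-value. Fragments came out whole in 100% of peaks (tolerance 0.001 in -log10 p). Depth was estimated with an effective genome of 1.87 Gb. The solver was checked on simulated data. TSSs were those of protein-coding transcripts in GENCODE vM21 (basic), and the middle of a peak was set against them. Of the listed keratins Krt85 and Krt74 were not among its protein-coding genes. Regions called in both libraries of a comparison were counted as changed at 1.5-fold. Sequences were read from GRCm38 (RefSeq).

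Members, classes, partner and marker lists were chosen with earlier results of these data known. The text names all simple, basal and stress-inducible keratins, hair keratins with a region, the 10 strongest of the remaining keratins and up to 4 of each partner list. Further genes were named after their values were seen. Alternatives concerned the overlap, q-value limit, list length, gene assignment, promoter distance, scale and motif window. Python 3 with pandas, scipy, pysam and samtools was used.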

Additional observations from a re-analysis of the deposited data

How the results depend on the processing

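The 27 results were recomputed under other settings, which gave 88 values, and 77 of these moved by less than 1.5 times or stayed within the interval of the reported value. No median log2 ratio changed sign, but the balance of regions called in 1 library only turned for TGF-β and for set 1 with lists of equal length. With the 14925 strongest peaks of every library, keratin peaks numbered 21 in untreated cells, 18 with TGF-β, 22 for set 1 and 16 for set 2, so the excess in the siControl library with TGF-β was no longer seen. Under this alternative 8 keratin regions were called with TGF-β and not in untreated cells, and 11 the other way round. For set 1, 8 were then called with it only and 4 in siControl only, and for set 2 5 and 7. In FPM the median log2 ratio of set 2 was -0.84, against -0.44 in fold enrichment. In a 500 bp window the ETS letters were in 61.5% of keratin regions, against 61.5% of all regions. The E-box letters were in 51.9% of keratin regions in this window, against 30.5% of all regions. The genes with a region, by class, stayed within 1.5 times under every alternative. No paired analysis was possible because each group has 1 list and no test was made. The lists hold called peaks only, so the count at a region without a call is not known, and the region may still be accessible. At similar backgrounds, taken from the libraries that had a call, the fewest fragments of a called peak were between 10 and 24.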
